A study of Homo sapiens with 6 samples.

Results

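The 38 genes described here carry out the cell cycle and DNA replication, and were taken by name from the 26475 genes of the deposited table. All 38 were found. They comprise 4 cyclins and transcription factors grouped under the step from G1 to S, and 8 factors of origin licensing and the replicative helicase. A further 6 are proteins of the replication fork and of nucleotide supply, and 20 act later, in G2, mitosis and mitotic exit. FOXM1 was placed in the first group, and so among the early genes counted below, although it drives genes of G2 and mitosis. Their levels were measured by messenger RNA sequencing in 6 libraries of human lung cancer cells, 2 each of PC9-AMG, PC9-BrM4 and PC9, all grown in MGS. PC9 was established from a lung adenocarcinoma whose growth depends on mutant EGFR, and the other names mark lines derived from it. The labels expand none of AMG, BrM4 and MGS, nor the word mix that every library name carries. They give no treatment beyond MGS, which all 3 groups share. As far as the study is known, MGS is a co-culture with mouse glia on a soft substrate. Each derivative is 1 line, and it is not stated whether its libraries come from separate cultures, so p-values measure only the spread between these libraries, which may be technical.

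Cells that commit to division activate E2F transcription factors, which switch on the genes of DNA replication. The MCM2-7 proteins are loaded at origins as the core of the replicative helicase, PCNA clamps the polymerases onto DNA and FEN1 trims the flaps left on the lagging strand, while TYMS, TK1 and ribonucleotide reductase supply nucleotides. Genes of G2 and mitosis are switched on later, by complexes that act through NF-Y boxes and through the element called CHR (cell cycle genes homology region) and that include the MYB-MuvB proteins and FOXM1. CDC20 and UBE2C then serve the anaphase-promoting complex, the ubiquitin ligase that ends mitosis.

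Letters linked to both kinds of control were looked for in the promoters. RefSeq windows (GRCh38.p14, 250 bases before to 50 after a gene start) were found for 30 of the 38 genes, the others being AURKA, BIRC5, CCNE2, FOXM1, MCM4, MCM5, TPX2 and UBE2C. They were searched on both strands for an E2F type motif (TTTCCCGC, TTTGGCGC, TTTCGCGC or TTTGCCGC), for the CHR (TTTGAA or TTTAAA) and for the NF-Y box (CCAAT). Matches to the E2F letters on opposite strands can overlap one another. The sequences below are the promoters of MCM6, MCM3, PCNA and TYMS, which were higher in PC9-BrM4 than in PC9, and of CDC20 and TK1, which were higher in PC9-AMG than in PC9. Each runs 5′ to 3′ along its gene, from 160 bases before the start to 10 bases into the transcript, and the capitals mark all matches to the 3 motifs in that stretch.
MCM6 (chr2:135876434-135876603, minus strand): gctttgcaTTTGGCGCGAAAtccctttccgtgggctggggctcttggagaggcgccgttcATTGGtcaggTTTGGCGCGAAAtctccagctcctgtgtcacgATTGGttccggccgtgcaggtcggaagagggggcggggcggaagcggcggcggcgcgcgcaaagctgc
MCM3 (chr6:52284733-52284902, minus strand): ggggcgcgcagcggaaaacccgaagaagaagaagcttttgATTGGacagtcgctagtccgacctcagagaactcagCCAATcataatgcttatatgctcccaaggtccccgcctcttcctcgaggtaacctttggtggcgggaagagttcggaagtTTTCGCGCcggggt
PCNA (chr20:5126613-5126782, minus strand): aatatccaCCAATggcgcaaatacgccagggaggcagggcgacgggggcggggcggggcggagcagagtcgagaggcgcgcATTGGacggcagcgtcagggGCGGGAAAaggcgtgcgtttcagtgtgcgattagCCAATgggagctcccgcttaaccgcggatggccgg
TYMS (chr18:657493-657662, plus strand): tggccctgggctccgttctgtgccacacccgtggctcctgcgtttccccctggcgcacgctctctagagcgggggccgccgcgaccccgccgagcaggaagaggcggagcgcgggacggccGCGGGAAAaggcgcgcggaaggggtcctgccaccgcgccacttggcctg
CDC20 (chr1:43358821-43358990, plus strand): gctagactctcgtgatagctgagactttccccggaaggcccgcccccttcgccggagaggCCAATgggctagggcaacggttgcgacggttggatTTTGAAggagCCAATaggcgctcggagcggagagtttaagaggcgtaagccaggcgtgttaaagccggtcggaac
TK1 (chr17:78187195-78187364, minus strand): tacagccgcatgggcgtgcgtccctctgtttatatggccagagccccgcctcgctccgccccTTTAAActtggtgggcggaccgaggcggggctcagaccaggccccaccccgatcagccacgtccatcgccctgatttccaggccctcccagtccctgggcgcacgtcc

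MCM6 held the E2F letters 4 times, as 2 overlapping pairs, at 152 and 148 and at 90 and 86 bases before its start. MCM3 held them across its start and once more further upstream, and PCNA and TYMS held them once each, at 59 and 39 bases before the start. CDC20 held the CHR letters between 2 NF-Y boxes and no E2F match. TK1 held the CHR letters 98 bases before its start and no E2F match in its windows. The promoters shown are examples. Of other genes higher in a derivative, E2F1 and MCM2 held E2F letters and CCNE1 the CHR. FEN1 held none of the 3 motifs and AURKB only an NF-Y box. Genes higher in neither derivative held such letters too, among them CDC6, CDT1 and GINS2 for E2F and CCNB1 and PLK1 for the CHR. An E2F match stood in 9 of 14 genes with a promoter in the G1 to S and replication roles (64.3%), and in 1 of 16 genes of the later roles (6.25%). Over all 27305 genes with a promoter the share was 3.99%, and over the 10295 tested ones 6.52%. The CHR was found in 4 of 14 genes of the early roles (28.6%) and in 13 of 16 of the later ones (81.25%), against 27.9% of all genes and 21.1% of tested genes. NF-Y boxes occurred in 9 of 14 (64.3%) and 13 of 16 (81.25%), against 39.7% and 42.6%. A match is a description of letters and not of binding, and a missing match says nothing about the factor.

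**Figure D1:**
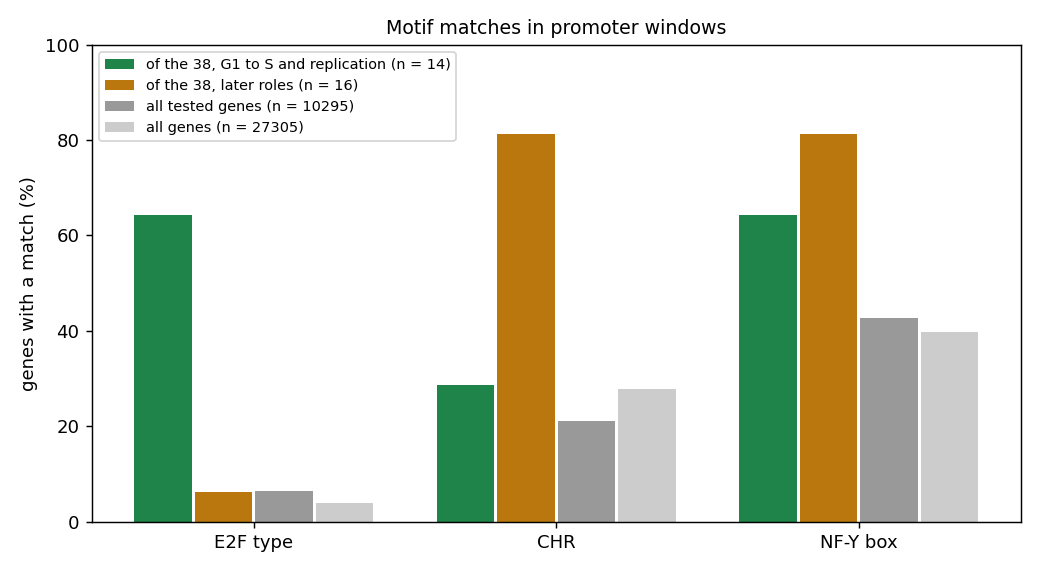
Share of genes (percent, y axis) whose promoter windows hold each motif (x axis), for genes of the G1 to S and replication roles, genes of the later roles, all tested genes and all genes with a promoter. E2F letters stand in 64.3% of the early genes and 6.25% of the later ones, and CHR letters in 28.6% and 81.25%.

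Values below are TPM, a transcript's length-scaled share of a library. Differences are taken between means of log2(TPM + 1), which understates changes of low genes, and are given ± their standard error (SE). A gene is said to be higher, lower, to rise or to fall where limma, fitted to all 6 libraries and all 14627 genes that reached 1 TPM in 2 or more libraries, gave a Benjamini-Hochberg adjusted p under 0.05. All 38 genes passed that filter. The files give no read counts, so depth is unknown; the lowest coverage of any of the 38 genes in a library was 1.67 reads per base, for CCNE2. Pairs of libraries of a line correlated across tested genes at 0.987 to 0.990 (Pearson's r), and pairs from different lines at 0.967 to 0.981. The cells carried high EPCAM and keratin messages, while the lung markers SFTPB and SFTPC were listed at 0 and NKX2-1 did not pass 0.28 TPM. Of 10 astrocyte markers, GFAP, GJB6, S100B and FABP7 were listed at 0 in every library. The summed level of that list was 70.0 to 75.8 TPM in PC9-AMG, 27.2 to 28.0 in PC9-BrM4 and 32.8 to 36.3 in PC9, most of it APOE and ALDH1L1. SLC1A3 of that list went the other way, at 0.652 and 0.361 TPM in PC9-AMG, 3.44 and 2.12 TPM in PC9-BrM4 and 0 in both PC9 libraries (adjusted p = 0.00178 in PC9-BrM4 against PC9). Of 8 microglial markers AIF1, CX3CR1, P2RY12 and TMEM119 were at 0, and the sum, mostly CD68, was 225 to 246 TPM in PC9-AMG, 166 to 181 in PC9-BrM4 and 226 to 232 in PC9. ITGAM of that list was higher than in PC9 in both derivatives, at 6.96 and 6.19 TPM in PC9-AMG, 8.54 and 6.57 TPM in PC9-BrM4 and 3.40 and 3.36 TPM in PC9 (adjusted p = 0.0340 and 0.00746). Fibroblast markers summed to 9.30 to 15.6 TPM in PC9-AMG, 16.1 to 17.9 in PC9-BrM4 and 9.38 to 11.2 in PC9, nearly all COL1A1, and 4 endothelial markers to no more than 1.99 TPM. The part of such RNA in the results below was not tested. The build is human (hg38), so these lists cannot measure mouse RNA, and its part in the values was not tested either.

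In both derivatives, part of the replication and division genes was higher than in PC9, with FEN1 called in both. PC9-BrM4 had more MCM2, MCM3, MCM6, PCNA, FEN1, TYMS and E2F1 message, all genes of S phase. PC9-AMG had more CCNE1, FEN1, TK1, AURKB, BIRC5 and CDC20 message, spread over S phase and mitosis. None of the 38 genes was lower than in PC9 in either line. The exceptions were FOXM1 and UBE2C in PC9-BrM4, once library medians were set equal and under some other settings, named in the last section. Set against one another, PC9-AMG had more of 6 genes, 4 of them mitotic, and less MCM3, MCM6 and PCNA than PC9-BrM4. In bulk RNA, fewer cells in a phase of the cycle and less RNA per cell cannot be told apart.

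In PC9-BrM4 against PC9, 7 of the 38 genes were higher (18.4%) and 0 lower. Over all tested genes, 16.3% were called, 9.89% higher and 6.45% lower. The 7 lay among the 18 genes of the G1 to S and replication roles (38.9%), and 0 of the 20 later genes were called, at a smallest adjusted p of 0.0606. At an unadjusted p under 0.05 there were 12 of the 38, and 4479 of all 14627 tested genes, a similar share. The median log2 difference was 0.47 over the 18 early genes, 0.05 over the 20 later ones and 0.09 over all tested genes. Setting the median of the tested genes equal in every library moved differences in this comparison by -0.10. It left the 7 higher and made FOXM1 and UBE2C lower, where 15.1% of all tested genes were called, 917 higher and 1293 lower.

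In PC9-AMG against PC9, 6 of the 38 genes were higher (15.8%) and 0 lower. Here 7.49% of all tested genes were called, 3.67% higher and 3.82% lower. The 6 comprised 3 of the 18 early genes and 3 of the 20 later ones, and 14 of the 38 had an unadjusted p under 0.05. Of all 14627 tested genes, 3706 had such an unadjusted p. The median log2 difference of the 38 genes was 0.22, with 34 differences above 0 and 4 below, against -0.05 over all tested genes. All 6 calls rested on every library: without PC9 library 1 or 2, or PC9-AMG library 1 or 2, 0 of the 38 were called by limma (adjusted p of these 6 between 0.0552 and 0.342). Testing genes of every level, with no filter, also left 0 of them called. Equal library medians gave 9 higher genes, E2F1, MCM6 and TYMS being added, where 7.66% of all tested genes were called, 685 higher and 436 lower.

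In PC9-AMG against PC9-BrM4, 6 of the 38 genes were higher and 3 lower (15.8% and 7.89%), and 12 had an unadjusted p under 0.05. Such an unadjusted p was found for 5074 of all 14627 tested genes, a slightly larger share. Among all tested genes 18.6% were called, 6.31% higher and 12.3% lower. The early genes had a median log2 difference of -0.19 and the later ones of 0.10, against -0.13 over all tested genes. The scaling mattered more here, since equal medians moved differences by 0.17. It gave 8 higher genes, FOXM1 and TOP2A being added, and 1 lower, PCNA, where 17.1% of all tested genes were called, 1606 higher and 900 lower. MCM3 and MCM6 kept differences below 0 but were no longer called.

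**Figure D2:**
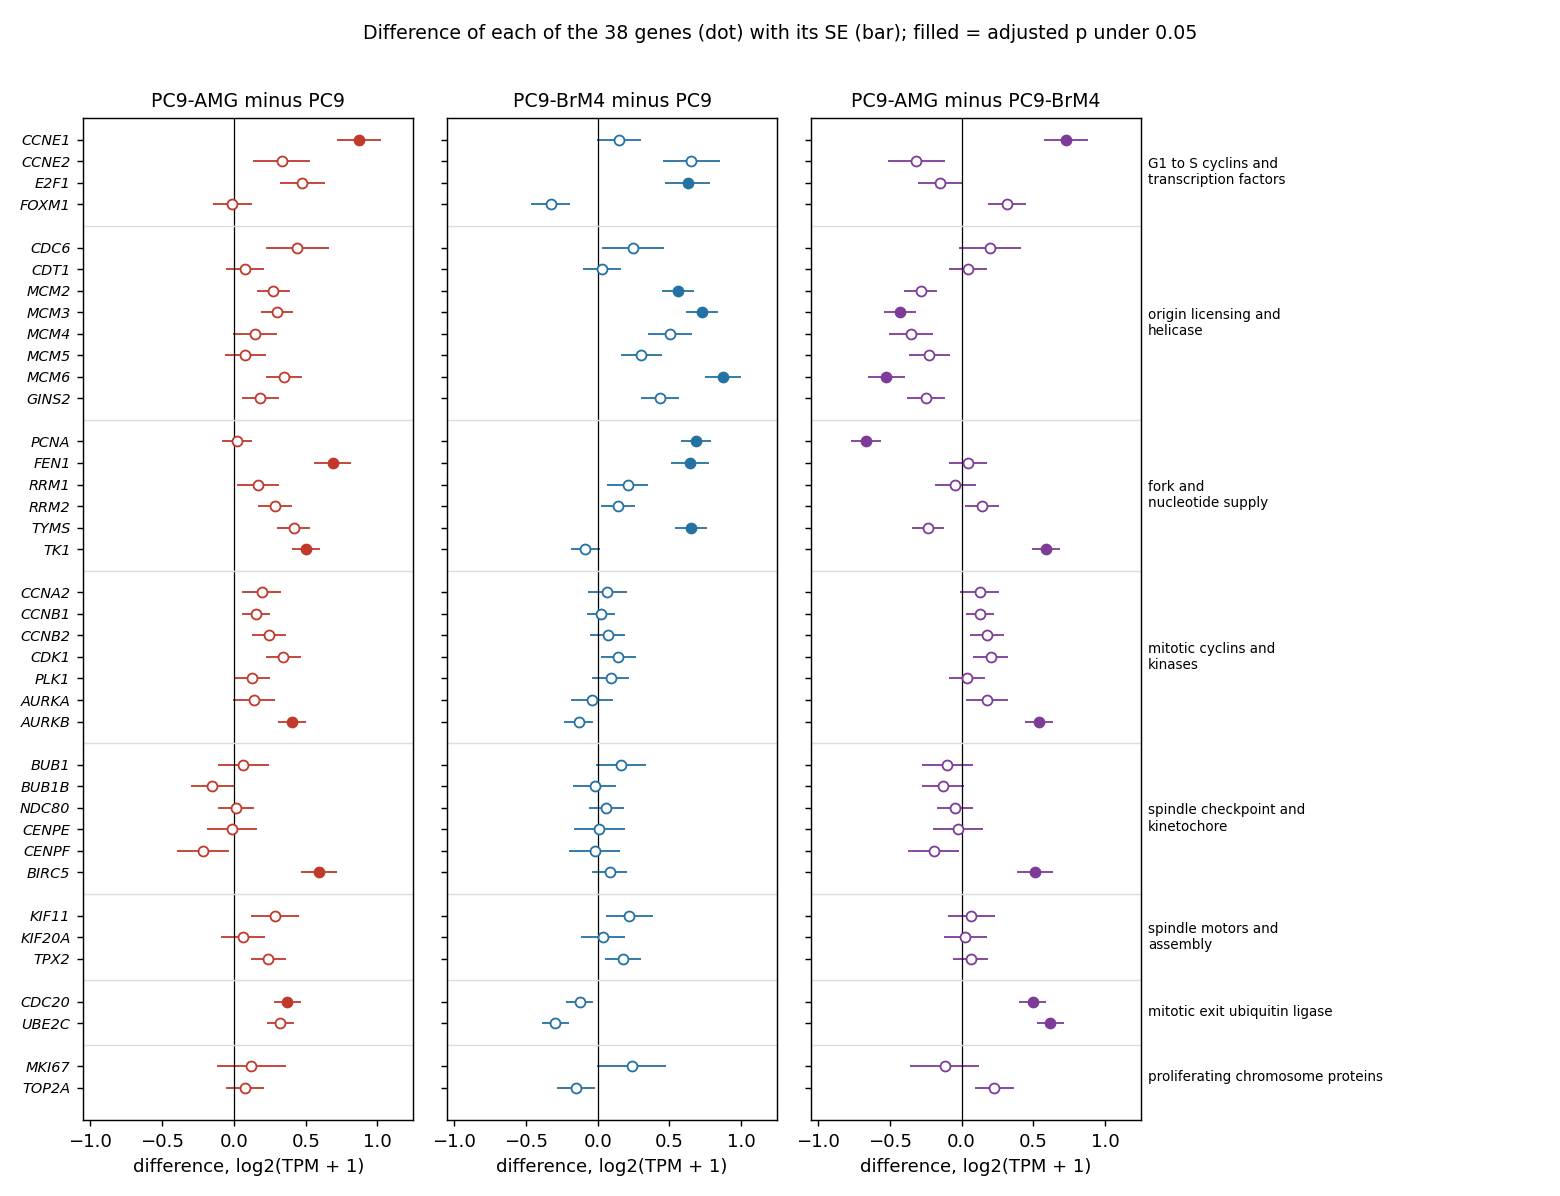
Difference of each of the 38 genes (dot, log2(TPM + 1)) with its standard error (bar), grouped by role, for PC9-AMG minus PC9, PC9-BrM4 minus PC9 and PC9-AMG minus PC9-BrM4. Filled dots had an adjusted p under 0.05: 7 S phase genes in PC9-BrM4, 6 genes of mixed roles in PC9-AMG, and 6 higher and 3 lower genes between the derivatives.

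Among the factors that start S phase, of the E-type cyclins, partners of CDK2, only CCNE1 was called. CCNE1 (chromosome 19, 29811994 to 29824308) had 16.4 and 15.1 TPM in PC9-AMG, 9.06 and 9.16 TPM in PC9-BrM4 and 8.85 and 7.46 TPM in PC9. The PC9-AMG libraries lay above the other 4, which differed little. The log2 difference was 0.87 ± 0.15 from PC9 (adjusted p = 0.0121), and 0.73 ± 0.15 from PC9-BrM4 (adjusted p = 0.0103). The call between the derivatives was lost without PC9-BrM4 library 1 or PC9-AMG library 1 (adjusted p up to 0.0612). CCNE2, the lowest of the 38 genes, had 3.22 and 4.12 TPM in PC9-AMG, 5.23 and 4.38 TPM in PC9-BrM4 and 2.71 and 2.66 TPM in PC9. Both derivatives lay above PC9, but PC9-BrM4 narrowly missed the threshold (0.65 ± 0.20, adjusted p = 0.0511).

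E2F1, the activator of replication genes, had 18.3 and 14.3 TPM in PC9-AMG, 19.3 and 17.0 TPM in PC9-BrM4 and 11.70 and 11.04 TPM in PC9. It rose in PC9-BrM4 (0.63 ± 0.16, adjusted p = 0.0241), although leaving out any of those 4 libraries ended the call (adjusted p up to 0.164). In PC9-AMG the difference was 0.48 ± 0.16 (adjusted p = 0.0935). FOXM1, a driver of mitotic genes, had 46.4 and 38.3 TPM in PC9-AMG, 36.7 and 30.8 TPM in PC9-BrM4 and 42.2 and 42.7 TPM in PC9. PC9-BrM4 was the lowest line, at -0.33 ± 0.13 from PC9 (adjusted p = 0.130).

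Among the helicase genes MCM2, MCM3 and MCM6 were higher in PC9-BrM4 than in PC9, and MCM4 and MCM5 were not called. MCM6 (chromosome 2, 135839626 to 135876477), whose promoter carried the overlapping pairs of E2F letters, had 24.2 and 22.3 TPM in PC9-AMG, 36.3 and 31.5 TPM in PC9-BrM4 and 18.1 and 17.9 TPM in PC9. The 3 lines did not overlap, with PC9-AMG between the others. MCM6 rose in PC9-BrM4 by 0.87 ± 0.13 (1.88-fold in TPM, adjusted p = 0.00178), whichever library was left out, and was 0.35 ± 0.13 from PC9 in PC9-AMG (adjusted p = 0.126). MCM3 (chromosome 6, 52264014 to 52284881) had 40.9 and 38.5 TPM in PC9-AMG, 56.1 and 51.5 TPM in PC9-BrM4 and 31.9 and 32.2 TPM in PC9. It too rose in PC9-BrM4 by 0.73 ± 0.11 (adjusted p = 0.00220), with every library left out in turn. The 50 tested genes next to MCM3, 25 on each side, had a median of 0.30 in the same comparison, so its region was above the median of all genes as well.

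MCM2 (chromosome 3, 127598357 to 127622435) had 50.8 and 48.3 TPM in PC9-AMG, 64.4 and 56.8 TPM in PC9-BrM4 and 38.8 and 42.7 TPM in PC9. The lines again did not overlap, and PC9-BrM4 was higher than PC9 by 0.56 ± 0.11 (adjusted p = 0.00998). That call ended without PC9 library 1, PC9 library 2 or PC9-BrM4 library 1 (adjusted p up to 0.129). MCM4 had 21.7 and 21.7 TPM in PC9-AMG, 32.5 and 24.1 TPM in PC9-BrM4 and 20.1 and 18.8 TPM in PC9, and just missed the threshold in PC9-BrM4 (0.50 ± 0.15, adjusted p = 0.05003). MCM5 differed from PC9 by 0.30 ± 0.14 in PC9-BrM4 (adjusted p = 0.186) and by 0.08 ± 0.14 in PC9-AMG (adjusted p = 0.773).

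The 2 derivatives differed in MCM6 (-0.52 ± 0.13, adjusted p = 0.0206) and MCM3 (-0.43 ± 0.11, adjusted p = 0.0261), both lower in PC9-AMG than in PC9-BrM4. Without PC9-BrM4 library 1 or PC9-AMG library 2 neither was called (adjusted p up to 0.101 and 0.109), and neither was called without PC9 library 1 or PC9 library 2. The medians of their neighbouring genes were -0.32 for both. Of the other factors in this group, GINS2, a subunit of the active helicase, had 21.3 and 21.2 TPM in PC9-BrM4 against 14.7 and 16.4 TPM in PC9 (0.43 ± 0.13, adjusted p = 0.0502). CDC6 and CDT1, which load the MCM ring, were not called in any comparison. CDC6 had 12.4 and 7.49 TPM in PC9-AMG, 8.90 and 7.74 TPM in PC9-BrM4 and 6.51 and 7.22 TPM in PC9, and CDT1 lay within 25.5 to 31.2 TPM in all 6 libraries.

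At the fork, PCNA (chromosome 20, 5114953 to 5126622) was the highest of the 38 genes in every line. It had 127 and 152 TPM in PC9-AMG, 219 and 223 TPM in PC9-BrM4 and 141 and 133 TPM in PC9. The PC9-BrM4 libraries stood well above the other 4, among which PC9-AMG and PC9 overlapped. PCNA rose in PC9-BrM4 by 0.69 ± 0.10 (1.61-fold, adjusted p = 0.00219) and was lower in PC9-AMG than in PC9-BrM4 by -0.67 ± 0.10 (adjusted p = 0.00254). Both calls held with each library of the comparison left out in turn. Between PC9-AMG and PC9 its difference was 0.02 ± 0.10 (adjusted p = 0.928). The median of its neighbouring genes was 0.11 in PC9-BrM4 against PC9 and -0.31 in PC9-AMG against PC9-BrM4.

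FEN1 (chromosome 11, 61792637 to 61797242) was the one gene of the 38 called in both derivatives, joined by E2F1, MCM6 and TYMS with equal library medians. It had 31.4 and 34.7 TPM in PC9-AMG, 30.3 and 33.7 TPM in PC9-BrM4 and 18.7 and 21.7 TPM in PC9. The derivatives overlapped one another and lay above PC9. The differences were 0.69 ± 0.13 in PC9-AMG (adjusted p = 0.0168) and 0.64 ± 0.13 in PC9-BrM4 (adjusted p = 0.00978), both against the same PC9 libraries. In PC9-BrM4 the call was lost without PC9 library 1 or PC9-BrM4 library 2 (adjusted p up to 0.127).

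Nucleotide supply split by gene. TYMS, thymidylate synthase (chromosome 18, 657604 to 673499), had 71.8 and 76.0 TPM in PC9-AMG, 93.3 and 81.3 TPM in PC9-BrM4 and 58.4 and 52.0 TPM in PC9. It rose in PC9-BrM4 by 0.65 ± 0.11 (adjusted p = 0.00443, and 0.0664 without PC9 library 2), and in PC9-AMG it was 0.42 ± 0.11 above PC9 (adjusted p = 0.0538). TYMS overlaps ENOSF1 on the opposite strand over 3176 bases, a gene at 8.88 to 13.9 TPM here. CCNE2 overlaps INTS8, at 32.5 to 48.3 TPM, on the opposite strand over 269 bases, and BUB1B overlaps PAK6 on the same strand over 3709 bases. FOXM1, PCNA, CCNA2, PLK1 and KIF20A also overlap genes on the opposite strand. How strand was used in counting is not given in the sources used here. TK1, the salvage thymidine kinase (chromosome 17, 78174079 to 78187204), had 124 and 116 TPM in PC9-AMG, 76.1 and 82.8 TPM in PC9-BrM4 and 84.7 and 83.8 TPM in PC9. Only the PC9-AMG libraries stood apart. TK1 was higher there than in PC9 by 0.50 ± 0.10 (adjusted p = 0.0177) and than in PC9-BrM4 by 0.59 ± 0.10 (adjusted p = 0.00342). The call between the derivatives held with each of its libraries left out in turn. The ribonucleotide reductase subunits RRM1 and RRM2 were not called, with differences between -0.04 and 0.28.

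**Figure D3:**
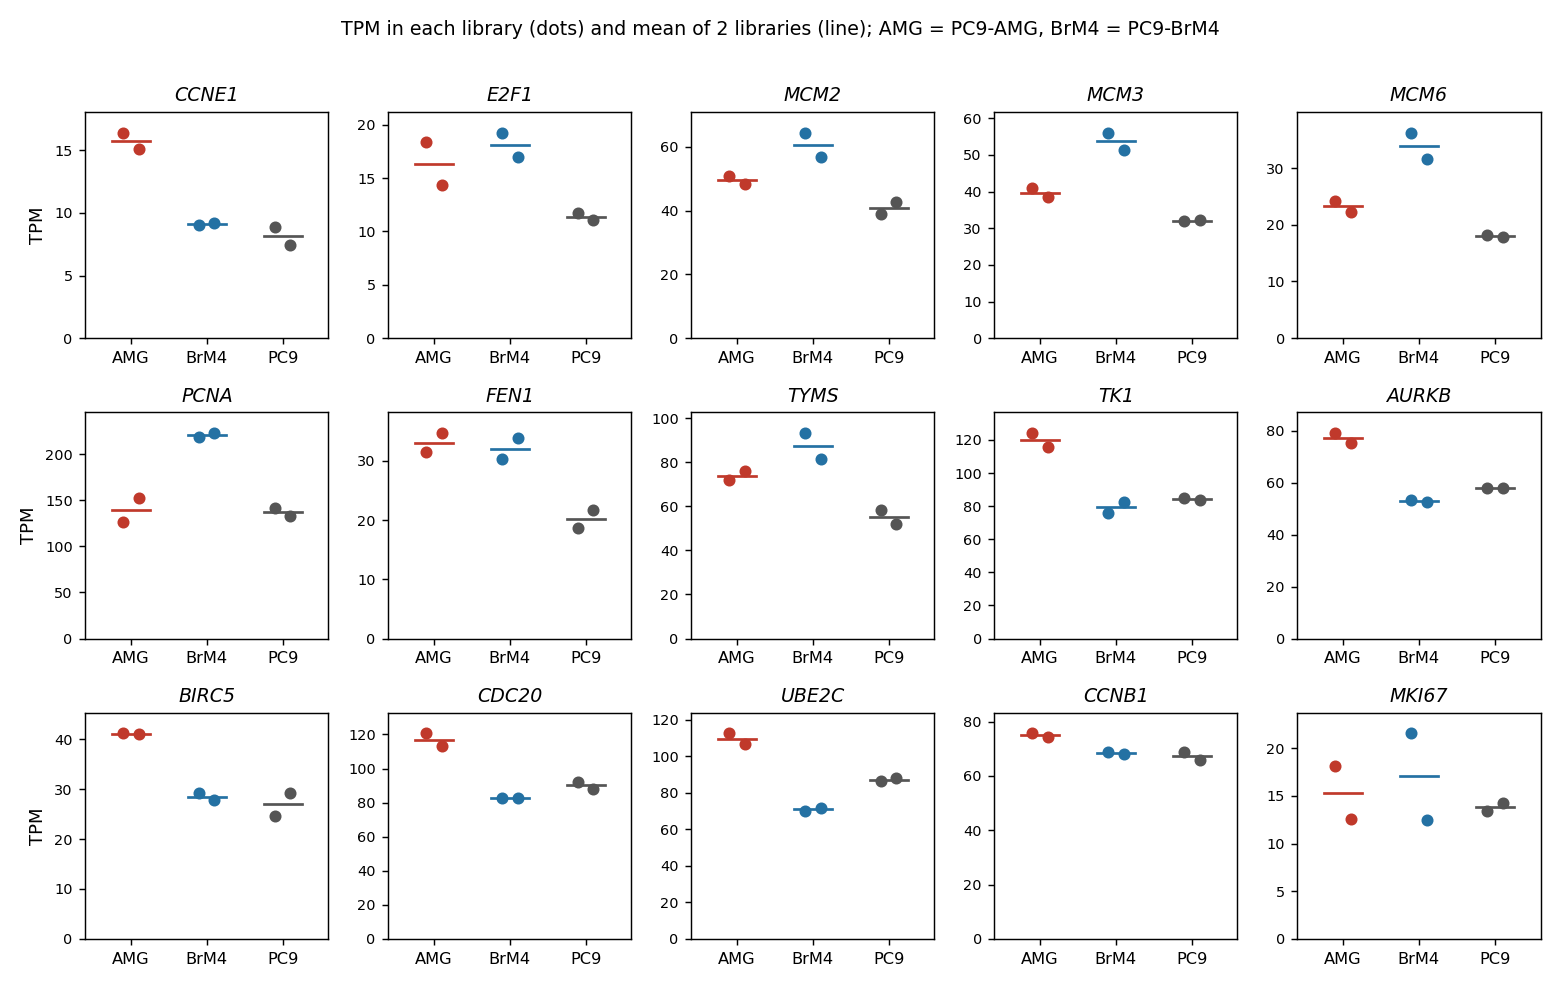
TPM (y axis, from 0, a separate scale per gene) of each library (dots) and the mean of the 2 libraries (line) in PC9-AMG, PC9-BrM4 and PC9, for the 13 genes called in a comparison and for CCNB1 and MKI67. MCM2, MCM3, MCM6 and PCNA are highest in PC9-BrM4, CCNE1, TK1, AURKB, BIRC5, CDC20 and UBE2C highest in PC9-AMG, and the 2 libraries of each derivative lie far apart for MKI67.

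The mitotic cyclins and their kinase were not called. CCNB1, the cyclin of CDK1 at mitotic entry, had 75.7 and 74.3 TPM in PC9-AMG, 68.7 and 68.1 TPM in PC9-BrM4 and 68.8 and 65.9 TPM in PC9. CDK1 itself had 72.8 and 90.6 TPM in PC9-AMG, 72.6 and 68.4 TPM in PC9-BrM4 and 64.6 and 62.8 TPM in PC9 (0.35 ± 0.12 in PC9-AMG, adjusted p = 0.110). CCNA2, CCNB2, PLK1 and AURKA were not called in any comparison either, with differences between -0.04 and 0.25. AURKB, the kinase of the chromosomal passenger complex (chromosome 17, 8204731 to 8210626), had 79.2 and 75.2 TPM in PC9-AMG, 53.2 and 52.4 TPM in PC9-BrM4 and 58.0 and 58.0 TPM in PC9. Its PC9-AMG libraries lay clear of the rest, by 0.41 ± 0.10 from PC9 (adjusted p = 0.0389) and 0.54 ± 0.10 from PC9-BrM4 (adjusted p = 0.00566, and at most 0.0339 with one of its libraries left out).

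BIRC5, or survivin, which works in the same complex as AURKB (chromosome 17, 78214196 to 78225635), was also highest in PC9-AMG. It had 41.2 and 40.9 TPM in PC9-AMG, 29.2 and 27.8 TPM in PC9-BrM4 and 24.6 and 29.3 TPM in PC9. PC9-BrM4 and PC9 overlapped. BIRC5 lies close to TK1 on chromosome 17, so these calls come from the same stretch. In PC9-AMG against PC9 the neighbouring genes had medians of 0.10 for BIRC5 and 0.13 for TK1, against -0.05 over all tested genes. The part of this region in the values was not tested. BIRC5 was higher in PC9-AMG than in PC9 by 0.59 ± 0.12 (adjusted p = 0.0240) and than in PC9-BrM4 by 0.51 ± 0.12 (adjusted p = 0.0203). The call between the derivatives ended with any of its 4 libraries left out (adjusted p between 0.0603 and 0.0756). The checkpoint kinases BUB1 and BUB1B and the kinetochore genes NDC80, CENPE and CENPF were not called, with differences between -0.21 and 0.16.

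Both genes of mitotic exit were highest in PC9-AMG and lowest in PC9-BrM4. CDC20, the activator of the anaphase-promoting complex (chromosome 1, 43358955 to 43363202), had 121 and 113 TPM in PC9-AMG, 82.5 and 82.6 TPM in PC9-BrM4 and 92.1 and 88.1 TPM in PC9. UBE2C, its ubiquitin-conjugating enzyme (chromosome 20, 45812576 to 45816957), had 113 and 106 TPM in PC9-AMG, 70.3 and 71.6 TPM in PC9-BrM4 and 86.3 and 88.1 TPM in PC9. For each of them the 3 lines did not overlap. In PC9-AMG against PC9 the neighbouring genes had medians of 0.16 for CDC20 and -0.04 for UBE2C. Between the derivatives both rose in PC9-AMG, CDC20 by 0.50 ± 0.09 (adjusted p = 0.00642) and UBE2C by 0.62 ± 0.09 (adjusted p = 0.00217), with each library of that comparison left out in turn. Against PC9, CDC20 rose in PC9-AMG by 0.37 ± 0.09 (adjusted p = 0.0431), while UBE2C was at 0.32 ± 0.09 in PC9-AMG (adjusted p = 0.0651) and -0.29 ± 0.09 in PC9-BrM4 (adjusted p = 0.0606).

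The proliferation marker MKI67 had 18.2 and 12.5 TPM in PC9-AMG, 21.6 and 12.5 TPM in PC9-BrM4 and 13.4 and 14.2 TPM in PC9. One library of each derivative lay below both PC9 libraries and the other above, and no difference was called (smallest adjusted p = 0.550). TOP2A, the topoisomerase of replicating and condensing chromosomes, had 33.6 and 37.5 TPM in PC9-AMG, 33.4 and 27.2 TPM in PC9-BrM4 and 34.7 and 32.5 TPM in PC9, and was not called. The spindle genes KIF11, KIF20A and TPX2 were not called, with differences between 0.03 and 0.29. PC9-BrM4 library 1 was above library 2 in 30 of the 38 genes (18 of the 20 later ones), and in 9786 of all 14627 tested genes. The median of library 1 minus library 2 was 0.17 over the 38 on the log2 scale, against 0.11 over all tested genes. Leaving out library 1 put the median PC9-BrM4 difference of the 38 genes at 0.03, and leaving out library 2 at 0.23, with 0.14 for both.

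Levels were also summed over roles. The 18 early genes held 740 and 725 TPM in PC9-AMG, 841 and 801 TPM in PC9-BrM4 and 611 and 603 TPM in PC9. The 20 later genes held 898 and 915 TPM in PC9-AMG, 806 and 722 TPM in PC9-BrM4 and 771 and 755 TPM in PC9. The sums are dominated by PCNA and other high genes and were not tested. For the early genes the 3 lines did not overlap, whereas for the later ones PC9-BrM4 and PC9 did.

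The longest transcripts of the 6 genes called in PC9-AMG against PC9 measure 1254 to 2711 bases, short among the 38. Across 13713 tested genes with a known length, the PC9-AMG difference from PC9 fell with the length of the longest transcript (Spearman's rho -0.23, across genes that share the same libraries). Over the 38 genes the coefficient was -0.44, and the median difference was 0.32 in the 19 shorter genes and 0.13 in the 19 longer ones. In PC9-AMG against PC9-BrM4 rho was -0.24 over tested genes and -0.33 over the 38, with medians of 0.13 in the shorter and -0.10 in the longer genes. In PC9-BrM4 against PC9 it was 0.04 over tested genes and 0.13 over the 38. With each library's trends with length and GC content removed, CCNE1, FEN1, TK1 and BIRC5 were still higher in PC9-AMG than in PC9, AURKB and CDC20 were not called, and CDK1 and MCM6 were. The part of transcript length in these differences was not tested further. All 6 genes higher in PC9-AMG than in PC9-BrM4 remained called after that removal.

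**Figure D4:**
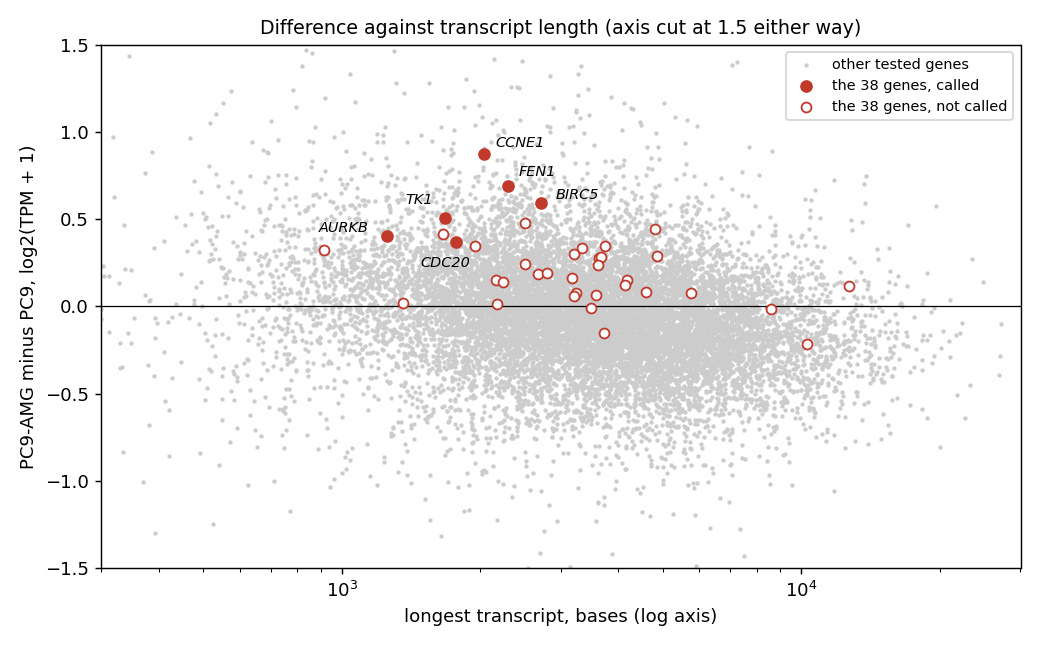
PC9-AMG minus PC9 difference (log2(TPM + 1), y axis limited to 1.5 either way) against the length of the longest transcript (bases, log axis) for tested genes (grey) and the 38 genes (red, filled where the adjusted p was under 0.05). The 6 filled genes lie between 1254 and 2711 bases, and Spearman's rho was -0.23 over 13713 tested genes and -0.44 over the 38.

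A wider list of 148 other cell cycle genes, of which 147 were tested, gave 15 higher and 6 lower in PC9-BrM4 against PC9 (10.2% and 4.08%, near the 9.89% and 6.45% of all tested genes). In PC9-AMG against PC9 it gave 5 higher and 1 lower (3.40% and 0.68%), where 3.67% of all tested genes were higher and 3.82% lower. In PC9-AMG against PC9-BrM4 it gave 11 higher and 5 lower (7.48% and 3.40%), where 6.31% of all tested genes were higher and 12.3% lower. In all 3 comparisons the share of higher genes was near that of all tested genes. In PC9-BrM4 the rises included CHEK1, the checkpoint kinase of stalled forks, with 12.5 and 13.0 TPM against 7.30 and 7.22 TPM in PC9 (0.73 ± 0.15, adjusted p = 0.0102). Also higher were CDC25A (0.72), GMNN (0.63), WEE1 (0.62), MYBL2 (0.60) and E2F3 (0.57), none of which held with every library of the comparison left out in turn, nor did CHEK1.

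Some inhibitors of cyclin-dependent kinases were among the lower genes. Of 10 such inhibitors and pocket proteins of the RB family, 3 fell and 0 rose in PC9-BrM4 against PC9, where 6.45% of all tested genes were lower. In PC9-AMG against PC9, 1 of them fell and 0 rose, where 3.82% of all tested genes were lower and 3.67% higher. In PC9-AMG against PC9-BrM4 CDKN1C and CDKN2A were higher and 0 were lower, where 6.31% of all tested genes were higher and 12.3% lower. CDKN2A, which encodes p16, had 237 and 267 TPM in PC9-BrM4 against 351 and 376 TPM in PC9 (-0.53 ± 0.09, adjusted p = 0.00473, and 0.0689 without PC9 library 2). CDKN1B, which encodes p27, was lower than in PC9 in both derivatives. It had 81.0 and 90.3 TPM in PC9-AMG, 102 and 94.6 TPM in PC9-BrM4 and 137 and 133 TPM in PC9. The differences were -0.65 ± 0.10 in PC9-AMG (adjusted p = 0.00783) and -0.45 ± 0.10 in PC9-BrM4 (adjusted p = 0.0139), against the same PC9 libraries. Without either PC9 library both calls were lost, and that in PC9-BrM4 also without PC9-BrM4 library 2 (adjusted p up to 0.0823 in PC9-AMG and 0.146 in PC9-BrM4). CDKN1C, which encodes p57, was lower in PC9-BrM4 by -0.61 ± 0.17 (adjusted p = 0.0375), a call that ended without PC9 library 1, PC9 library 2 or PC9-BrM4 library 1.

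Of 6 tested genes grouped as G1 cyclins and kinases, 2 were higher and 2 lower in PC9-BrM4 than in PC9. Of all tested genes, 9.89% were higher and 6.45% lower there. CDK2 and CDK4 were lower, at adjusted p = 0.0468 and 0.0200, and CDC25A and CCND1 higher. CCND1, a D-type cyclin, had 151 and 126 TPM in PC9-BrM4 against 97.6 and 96.8 TPM in PC9 (0.50 ± 0.11, adjusted p = 0.0132). CCND1 was lower in PC9-AMG than in PC9-BrM4 (-0.50 ± 0.11, adjusted p = 0.0129). CDK4, the partner of D-type cyclins, had 137 and 143 TPM in PC9-AMG, 77.8 and 87.8 TPM in PC9-BrM4 and 112 and 109 TPM in PC9. It was -0.41 ± 0.10 from PC9 in PC9-BrM4, a call lost without PC9 library 1, PC9 library 2 or PC9-BrM4 library 1 (adjusted p up to 0.183), and 0.75 ± 0.10 higher in PC9-AMG than in PC9-BrM4 (adjusted p = 0.000973). The neighbouring genes of CDK4 on chromosome 12 moved too, with medians of -0.39 and 0.35 in these comparisons, and those of CDK2 had a median of -0.42 beside its own -0.39. The CDK2 call ended with any of its 4 libraries left out (adjusted p up to 0.301). MCM7, the helicase gene that the 38 do not include, had 138 and 115 TPM in PC9-AMG, 96.0 and 97.9 TPM in PC9-BrM4 and 102 and 102 TPM in PC9. Unlike MCM2, MCM3 and MCM6 it was not called in PC9-BrM4 against PC9 (-0.07 ± 0.11), where its neighbours on chromosome 7 had a median of -0.25. It was higher in PC9-AMG than in PC9-BrM4 (0.37 ± 0.11, adjusted p = 0.0371), beside neighbours at 0.24, a call lost without PC9-BrM4 library 1 or 2 or PC9-AMG library 1 (adjusted p up to 0.153). The part of these chromosome regions in the values was not tested.

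UBE2S and PTTG1, which act in the same step as CDC20 and UBE2C, were higher in PC9-AMG than in PC9-BrM4, whereas FZR1 (-0.10) and FBXO5 (-0.03), an activator and an inhibitor of the same ligase, were not called. UBE2S, the enzyme that lengthens the ubiquitin chains begun by UBE2C, had 225 and 228 TPM in PC9-AMG, 103 and 118 TPM in PC9-BrM4 and 151 and 155 TPM in PC9. It was 1.03 ± 0.10 higher in PC9-AMG than in PC9-BrM4 (adjusted p = 0.000134), with each library of that comparison left out in turn. It was also higher in PC9-AMG than in PC9 (0.57 ± 0.10, adjusted p = 0.0109, and up to 0.113 with one of the 4 libraries left out). Its neighbouring genes had a median of 0.33 between the derivatives. PTTG1, which encodes securin, a substrate of the same ligase, had 199 and 231 TPM in PC9-AMG, 130 and 132 TPM in PC9-BrM4 and 152 and 138 TPM in PC9. It was higher in PC9-AMG than in PC9-BrM4 by 0.70 ± 0.10 (adjusted p = 0.00175) and than in PC9 by 0.56 ± 0.10 (adjusted p = 0.0145, and up to 0.157 with a library left out). CDCA8, or borealin, the partner of AURKB and BIRC5, was higher by 0.63 ± 0.14 in PC9-AMG than in PC9-BrM4 (adjusted p = 0.0118, and 0.0637 without PC9-AMG library 1), and CDCA5, or sororin, by 0.54 ± 0.12 (adjusted p = 0.0136, and up to 0.0734 with a library left out). The kinetochore gene ZWILCH was lower by -0.83 ± 0.16 in PC9-AMG than in PC9-BrM4 (adjusted p = 0.00628).

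The other called genes of the wider list in PC9-AMG against PC9 were GMNN, POLD2 and CKS2. GMNN, geminin, which restrains CDT1, had 33.8 and 45.6 TPM in PC9-AMG, 38.2 and 40.4 TPM in PC9-BrM4 and 22.9 and 27.4 TPM in PC9. The derivatives overlapped and lay above PC9, by 0.63 ± 0.16 in PC9-AMG (adjusted p = 0.0417) and 0.63 ± 0.16 in PC9-BrM4 (adjusted p = 0.0241). POLD2, a subunit of DNA polymerase delta, had 192 and 173 TPM in PC9-AMG, 184 and 173 TPM in PC9-BrM4 and 136 and 125 TPM in PC9. It was higher than in PC9 in both derivatives, by 0.48 ± 0.10 in PC9-AMG (adjusted p = 0.0203) and 0.45 ± 0.10 in PC9-BrM4 (adjusted p = 0.0120). CKS2, a small protein that binds cyclin-dependent kinases, was higher in PC9-AMG by 0.36 ± 0.09 (adjusted p = 0.0474). In PC9-AMG the POLD2 and CKS2 calls ended with any of the 4 libraries left out, and that of GMNN without PC9 library 1, PC9 library 2 or PC9-AMG library 2.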

How the data were processed

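Per the labels' protocols, RNA was extracted with TRIzol and sequenced as TruSeq Stranded mRNA libraries. The tools named in the submitters' processing notes are StringTie 1.3.4d and HISAT2 2.1.0, and the build is hg38; the annotation is not given in the sources used here. Per the file headers, each deposited library table gives Coverage (the authors' mean read coverage per base), FPKM and TPM. The TPM values deposited by the authors were used, summed over repeated gene rows; all 38 genes had 1 row per library and equalled the deposited table of all libraries within 0.001 TPM. FPKM as deposited by the authors served as an alternative. No table gives read counts, so no counting interval was made; coverage at 1 TPM was 0.606 to 0.822.

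A mean per group was fitted to log2(TPM + 1) of all 6 libraries with limma 3.58.1 (R 4.3.3), with empirical Bayes moderation and a variance trend (3 residual and 6.81 prior degrees of freedom). Tests were two-sided and adjusted by Benjamini-Hochberg over 14627 genes, and were tested on simulated data. In the wider list, up to 8 called genes per comparison with the largest differences were named, with called genes of a role that is counted; MCM7 and CDK2 were chosen after their values were seen, and 1 gene that the rule names is not reported here. The genes and lists were chosen with earlier results of these data known. Transcript lengths are those of the longest GENCODE v29 transcript. Promoters come from RefSeq (GRCh38.p14).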

Additional observations from a re-analysis of the deposited data

How the results depend on the processing

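The settings tried were median centring, quantile normalization, a pseudocount of 0.1, no filter, a filter at 5 TPM, FPKM, no variance trend, only the 4 libraries compared, a replicate block, the table over all libraries, trends with length and GC content removed, and leaving out each library; the lone library of its group is then assumed to vary like the others. In PC9-BrM4 against PC9 the count of 7 called genes became 11 with length and GC trends removed, and between 4 and 8 with a library left out. In PC9-AMG against PC9 the 6 became 11 with FPKM, 0 without a filter and 1 without the variance trend, and between 0 and 6 with a library left out; the causes were not tested. In PC9-AMG against PC9-BrM4 the 9 became between 5 and 9 with a library left out. With the replicate block the counts were 8 in PC9-BrM4 against PC9, 5 in PC9-AMG against PC9, where CDC20 was lost, and 9 between the derivatives. Removing length and GC trends gave 11 between the derivatives, 7 higher and 4 lower. Libraries with the same number did not deviate together (correlations of 0.03, -0.04 and 0.003), so the numbers do not pair them. Counts for the wider list, added after the data were seen, ranged from 2 to 39 in PC9-BrM4 against PC9, 0 to 16 in PC9-AMG against PC9 and 8 to 25 between the derivatives. Of the alternatives for single named genes, 651 kept the call, 181 lost it with the same direction and 0 reversed. CCNE2 in PC9-BrM4 against PC9, not called at first, was called without the variance trend (adjusted p = 0.0360) and with length and GC trends removed (0.0169). FOXM1 and UBE2C, also not called at first in that comparison, were lower with median centring and with quantile normalization. UBE2C was lower there also with FPKM, with only the 4 libraries compared and with either PC9-AMG library left out. FOXM1 was lower also with length and GC trends removed. Depth is unknown, and 2 libraries a line limit the precision.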
